A study of Macaca fascicularis with 12 samples.

Results

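The genes described here encode the subunits of the mitochondrial respiratory chain and the factors that assemble it, measured in macaque brain after injection of a baculovirus. Members were the probe sets whose single gene symbol in the array annotation began with NDUFA, NDUFB, NDUFC, NDUFS, NDUFV, UQCR, ATP5 or SDH, or with COX4 to COX8. The rule used no measured value. It gave 112 of 52766 probe sets and 68 of 14132 genes. Of these, 107 probe sets, covering all 68 genes, were bright enough to be tested. The 5 dim ones were 2 of NDUFAF7 and 1 each of ATP5PO, ATP5MG and ATP5G1. Prefixes also catch genes that are no subunits: 10 assembly factors (NDUFAF and SDHAF genes) and ATP5IF1, an inhibitor of ATP synthase. NDUFA4 and NDUFA4L2 were placed with complex IV, where the NDUFA4 protein is found. Mitochondrially encoded subunits lay outside the rule. SDHD, ATP5F1A and COX4I1 were not analysed here.

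Per the labels' protocols, 3 adult male cynomolgus macaques were injected at 4 striatal sites of the left hemisphere with the baculovirus BV-HSVtk, purified by membrane chromatography and centrifugation, at 1e8 particles in 10 µL per site. The right hemisphere received a mock preparation at matching coordinates: Sf9 insect cell medium without virus, purified alike. Tissue pieces of about 100 mg were collected after 2 days, 2 per hemisphere, with 1 array each, which gives 6 BV and 6 mock arrays. Numbers 1 and 2 are animal 1, 3 and 4 animal 2, and 5 and 6 animal 3, odd for piece 1 and even for piece 2. All animals carried both treatments, and both hemispheres were injected. Virus always went to the left side, so side and treatment cannot be told apart. A baculovirus infects insect cells, and its vectors enter mammalian cells without replicating; HSVtk names the thymidine kinase of herpes simplex virus, whose promoter is not given in the sources used here.

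The respiratory chain sits in the inner mitochondrial membrane. Complex I takes electrons from NADH and complex II from succinate, both pass them to ubiquinone, complex III hands them to cytochrome c, and complex IV gives them to oxygen. The proton gradient built on the way drives complex V, ATP synthase. Neurons depend on this ATP to restore ion gradients after firing, and the chain's nuclear genes are for the most part expressed in all cell types of the brain. Core subunits, as grouped here, include those that carry the cofactors and the catalysis. The group also holds genes whose products do neither, such as UQCRC1, UQCRC2, ATP5F1D and ATP5F1E. Accessory (supernumerary) subunits stabilise the complexes and some exist as tissue isoforms. Assembly factors build the complexes without staying in them.

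Several facts about the arrays touch the results. The mock array 6 stood apart in its actin 3′ to 5′ signal ratio, which was 2.40, against 1.10 to 1.4 on the other 11. This ratio is a measure of RNA integrity, and higher values go with shorter RNA. The same ratio for GAPDH did not set mock 6 apart, as mock 1 had a higher value. The pieces also differed in tissue content. The striatum is built mostly of medium spiny neurons, and the mean log2 signal of 7 of their markers lay between 8.86 and 10.3 on BV 4 and 6 and mock 2, 4, 5 and 6, and between 5.78 and 7.39 on the other 6 arrays. On those 6 the striatal markers were thus low although the labels place the injections in caudate and putamen, while the mean of 6 thalamic markers was 7.73 to 9.25, against 5.99 to 7.47 on the striatum-rich arrays. Within pairs of equal number, both arrays were of the same kind in pairs 1, 3, 4 and 6, and in pairs 2 and 5 only the mock array was striatum-rich. Deposited medians also differed with the piece number, from 50.2 to 62.8 on piece 1 arrays and from 25.4 to 32.7 on piece 2 arrays, and whether the pieces were processed apart is not given in the sources used here. All 7 genes of an interferon response list were higher on the virus side (median fold 2.55, log2 scale), and 4 of them passed the test.

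Intrastriatal BV-HSVtk was compared with mock injection to ask which transcripts differ. No respiratory chain gene passed the test. The median fold of the 68 member genes was -0.081 (BV minus mock, log2 scale, each gene by its brightest probe set), and the medians in the 3 animals were -0.041, 0.062 and -0.23. Folds ran from -0.34 for NDUFB10 to 0.46 for NDUFAF7. Of the 68 genes, 57 (83.8%) had a fold within 0.25 of 0, which is 18.9% upwards, compared with 67.5% of all 11143 genes tested. All 68 had a 95% interval that lay within 1 log2 unit of 0, that is a change of less than 1 doubling, compared with 87.9% of all genes. Members also varied less over the 12 arrays (median SD 0.26, all genes 0.35) and had narrower intervals (median half-width 0.32, all genes 0.40). The shares of genes within these limits were not set against those of genes of like signal. In bulk tissue, fewer cells of a type and less RNA per cell cannot be told apart.

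The fit across all probe sets (limma, animal as a block, Benjamini-Hochberg over all 31660, adjusted p under 0.05) called 0 of 107 member probe sets, against 0.0284% of all. The lowest adjusted p among members was 0.564. At an unadjusted p under 0.05 there were 6 member probe sets (5.61%), 3 higher and 3 lower in BV, below the 8.8% of all probe sets. A fit on the 12 single arrays with the replicate number as a block called 0 members and 0.174% of all, with a lowest adjusted p of 0.261 among members. Arrays were also simulated with the means of these and their spread within hemispheres. On them the animal-block fit recovered 16% of probe sets changed by 1 log2 unit and 86% of those changed by 2. The simulation held no differences between animals or between hemispheres, and its within-hemisphere spread was taken with too large a divisor. The recovered shares are thus not those of this design. Differences of 1 log2 unit, some of 2, and smaller ones could pass unseen.

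**Figure D1:**
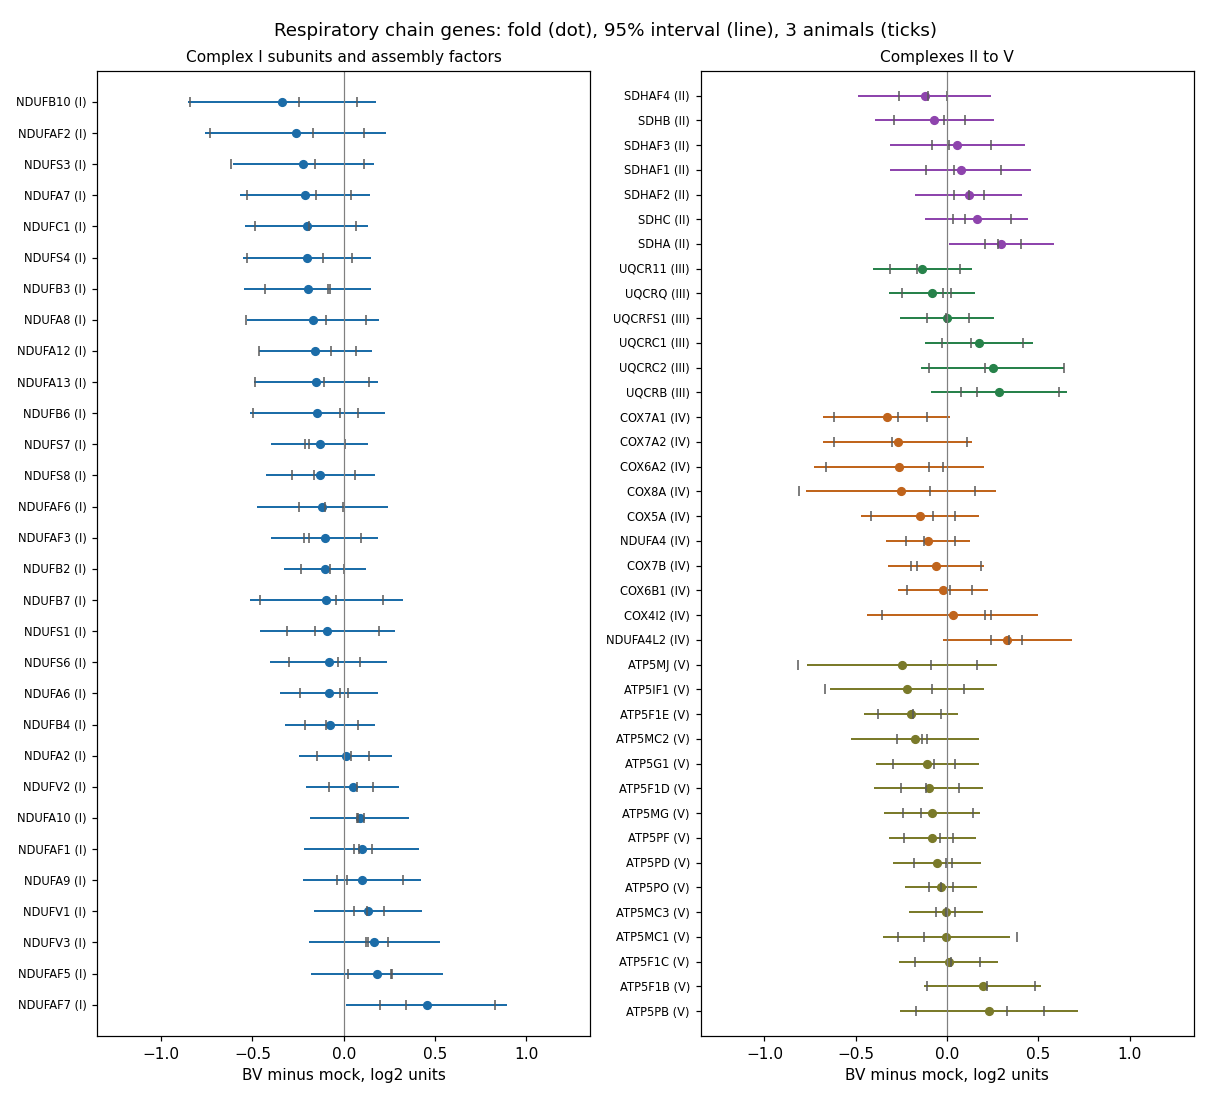
BV minus mock on the log2 scale for each of the 68 genes by its brightest probe set; dots are the fitted folds, lines their 95% intervals, ticks the 3 animals, and colours and the numerals in brackets the complex. The folds lie between -0.34 (NDUFB10) and 0.46 (NDUFAF7), every interval stays within 1 log2 unit of 0, and the animals' ticks often fall on both sides of 0.

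More member genes were lower than higher in BV tissue, 45 against 23, but this split depended on the scaling and on single arrays. With median centring in place of quantile normalization, 28 were lower and 40 higher, and the median fold was 0.019. That scaling moved the median of all genes too, from 0.0022 to 0.11. Relative to all genes, the member median was -0.083 with quantile normalization and -0.089 with median centring. The median was -0.033, -0.028 and -0.023 without BV 1, mock 3 or mock 6, and -0.13, -0.13 and -0.15 without BV 2, mock 4 or mock 5. Without mock 6, 28 genes were higher and 40 lower; without animal 3, 35 were higher and 33 lower, with a median of 0.00038. Without animal 2 the median was -0.15. Leaving out mock 6 moved the folds of 49 of the 68 genes by over 1.5 times or across 0, 11 of them across 0. A single array left out leaves its hemisphere with the other piece alone. Folds without mock 6, here and below, thus set both BV pieces of animal 3 against mock 5, so piece and tissue content enter them. Without pair 6, which leaves animal 3 with pair 5, the median was -0.037, with 28 genes higher and 40 lower. The split also differed between the pieces: on piece 1 arrays alone 58 of 68 genes were lower, with a median of -0.14, and on piece 2 arrays alone 38 were lower, with a median of -0.025.

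Complex I had 24 subunit genes, of which 18 were lower and 6 higher in BV, with a median fold of -0.12 and none called. Without mock 6 the median was -0.053, with 9 higher and 15 lower, and without animal 3 it was -3.9e-05. The core subunits of its peripheral arm, which bind NADH and pass electrons along iron-sulphur clusters, had small folds. NDUFV1, the flavoprotein that binds NADH, had log2 signals of 9.66, 9.89 and 9.96 (lowest, median and highest of 6) on BV arrays and 9.46, 9.82 and 9.92 on mock arrays. The groups overlapped, and the fold was 0.13 ± 0.12 (SE, n = 3 animals), or 0.068 without mock 6. NDUFS1, the largest core subunit, had a fold of -0.090 ± 0.15 (0.016 without mock 6, -0.059 without pair 6). Its BV signals of 8.80, 9.40 and 9.83 overlapped the mock signals of 9.02, 9.52 and 9.83. NDUFS3 was at 10.6, 10.9 and 11.1 on BV arrays and at 10.8, 11.1 and 11.6 on mock arrays, with a fold of -0.22 ± 0.15 (adjusted p = 0.602), which was -0.14 without mock 6. The other core subunits NDUFS7, NDUFS8 and NDUFV2 had folds of -0.13, -0.13 and 0.048, and of -0.11, -0.054 and 0.084 without mock 6. Of the 6 core genes, 4 were lower and 2 higher.

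Among accessory subunits of complex I, NDUFB10, part of the membrane arm, had the lowest fold of all members. Its log2 signals were 7.53, 7.69 and 8.19 on BV arrays and 7.66, 8.12 and 8.72 on mock arrays, a fold of -0.34 ± 0.21 (adjusted p = 0.585). The groups overlapped, BV was lower in 5 of 6 pairs, and the fold of animal 3 was -0.84 while that of animal 2 was 0.075. Without mock array 6, its highest array, the fold was -0.27. The second, dimmer probe set of NDUFB10 had a fold of -0.54 ± 0.21 (adjusted p = 0.564), the lowest of the 107 member probe sets. Its 95% interval ran from -1.06 to -0.027. The bright accessory subunits NDUFB2 and NDUFA12 had folds of -0.10 ± 0.09 and -0.16 ± 0.12, which were -0.052 and -0.065 without mock 6. NDUFB2 lay between 11.52 and 11.85 on BV arrays and between 11.53 and 12.04 on mock arrays, and NDUFA12 between 11.20 and 11.65 and between 11.18 and 11.99. The groups overlapped for both genes.

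Complex II, succinate dehydrogenase, is also an enzyme of the TCA cycle. SDHA, its flavoprotein that oxidises succinate, had one of the 3 highest folds. Its log2 signals were 10.05, 10.22, 10.40, 10.44, 10.34 and 9.66 on BV arrays 1 to 6 and 10.10, 9.61, 10.18, 10.24, 9.61 and 9.57 on mock arrays 1 to 6. BV was higher in 5 of 6 pairs, but the gap was widest in pairs 2 and 5, those in which the mock array alone was striatum-rich. The fold was 0.30 ± 0.12 (adjusted p = 0.564), with 0.28, 0.21 and 0.41 in the 3 animals. With the striatal marker mean as a covariate on the 12 arrays the fold was 0.19 (adjusted p = 0.693). SDHB, the iron-sulphur subunit, had a fold of -0.070 ± 0.13 (0.0080 without mock 6, -0.024 without pair 6). SDHC, a membrane anchor, had one of 0.16 ± 0.11 (0.041 without mock 6). SDHC ranged from 10.7 to 10.9 on BV arrays and from 9.96 to 10.98 on mock arrays, where mock 6 was the lowest by a wide margin. Without mock 6 the median of the 3 complex II genes was 0.041 in place of 0.16.

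Complex III had 6 genes, 4 higher and 2 lower in BV, with a median fold of 0.087. This median was 0.029 without mock 6 and -0.0070 without pair 6. The core proteins UQCRC1 and UQCRC2 had folds of 0.17 ± 0.12 and 0.25 ± 0.16 (adjusted p = 0.598 and 0.587). UQCRC2 was at 11.37, 11.11, 11.15, 10.85, 10.51 and 10.96 on BV arrays 1 to 6 and at 11.26, 10.80, 11.09, 11.12, 10.59 and 9.60 on mock arrays 1 to 6. The groups overlapped, mock 6 lay far below the other arrays, and without it the folds of UQCRC1 and UQCRC2 were 0.059 and 0.085. Without pair 6 these 2 folds were 0.063 and 0.0097. UQCRFS1, the Rieske iron-sulphur protein that moves electrons towards cytochrome c, had a fold of 0.0017 ± 0.10, or -0.036 without mock 6. The small subunits UQCRQ and UQCR11 had folds of -0.082 ± 0.09 and -0.13 ± 0.11, which were -0.0020 and -0.095 without mock 6.

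Complex IV, cytochrome c oxidase, had 10 nuclear genes, 2 higher and 8 lower in BV, with a median fold of -0.13 (-0.060 without mock 6). Several exist as tissue isoforms. COX7A1, the form known from heart and muscle, was at 9.92, 10.09, 9.73, 9.84, 10.12 and 10.33 on BV arrays 1 to 6 and at 10.08, 10.46, 9.99, 9.79, 10.62 and 11.07 on mock arrays 1 to 6. It was lower in 5 of 6 pairs, the ranges overlapped, and the fold was -0.33 ± 0.14 (adjusted p = 0.564). COX7A2, the widely expressed form, had a fold of -0.27 ± 0.17, which was -0.12 without mock 6. Its second probe set went the other way, with a fold of 0.47 ± 0.14 and BV higher in 5 of 6 pairs (adjusted p = 0.564), so the array gives no single direction for this gene.

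The other isoform genes of complex IV had folds between -0.26 and 0.33. COX6A2, another heart and muscle form, had a fold of -0.26 ± 0.19 and COX4I2, known as a form induced by low oxygen, one of 0.031 ± 0.19. COX8A, a small membrane subunit, had a fold of -0.25 ± 0.21, and of -0.023 with the striatal marker mean as a covariate; this value had the opposite sign under 1 of 31 settings. The bright subunits COX6B1 and COX7B had folds of -0.022 ± 0.10 and -0.061 ± 0.10 (0.088 and -0.011 without mock 6), with both groups between 11.5 and 12.2 for COX6B1.

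NDUFA4 and its paralogue NDUFA4L2, which low oxygen induces in many cells, differed in direction. NDUFA4 had log2 signals of 11.4, 11.6 and 11.9 on BV arrays and 11.55, 11.79 and 11.97 on mock arrays, with a fold of -0.10 ± 0.09 (-0.056 without mock 6). NDUFA4L2 was at 6.64, 6.97, 6.89, 6.69, 6.87 and 6.58 on BV arrays 1 to 6 and at 6.41, 6.52, 6.49, 6.27, 6.42 and 6.55 on mock arrays 1 to 6. The groups did not overlap. It was the only member probe set of 107 with all BV arrays above all mock arrays (0.237% of all probe sets) and the only one higher in 6 of 6 pairs (3.37% of all). Its fold was 0.33 ± 0.14, with 0.34, 0.41 and 0.24 in the 3 animals, and it did not pass the test (adjusted p = 0.565). With the striatal marker mean as a covariate it was 0.31. The difference between the paralogues was not tested. Over 31 settings the NDUFA4L2 fold stayed between 0.27 and 0.43, with a lowest adjusted p of 0.261.

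BV was lower in 6 of 6 pairs for 2 member probe sets, against 4.37% of all probe sets. Both were secondary probe sets, of NDUFA6 (fold -0.37 ± 0.14) and NDUFS8 (fold -0.25 ± 0.13), and were named after their values were seen. The brightest probe sets of these genes had folds of -0.079 and -0.13, and of 0.017 and -0.054 without mock 6.

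Complex V had 15 genes with its inhibitor counted in, 3 higher and 12 lower in BV, a median fold of -0.081 (-0.018 without mock 6) and all 15 folds within 0.25 of 0. ATP5F1B, the catalytic beta subunit, was at 12.01, 11.85, 11.91, 11.50, 11.39 and 11.61 on BV arrays 1 to 6 and at 11.96, 11.46, 11.92, 11.70, 11.29 and 10.74 on mock arrays 1 to 6. The groups overlapped, mock 5 and 6 lay below all BV arrays, the fold was 0.20 ± 0.13 (adjusted p = 0.593), and without mock 6 it was 0.10. ATP5F1C, the gamma subunit of the rotor stalk, had a fold of 0.0082 ± 0.11, or 0.063 without mock 6. ATP5PO, which joins the stator stalk to the catalytic head, spread least: its signals were 11.9 to 12.1 in both groups and its fold was -0.032 ± 0.08 (-0.0055 without mock 6).

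The proteolipid c subunit of the rotor ring is encoded by several genes whose mature proteins are the same. ATP5MC1, ATP5MC2 and ATP5MC3 had folds of -0.0044 ± 0.14, -0.17 ± 0.14 and -0.0076 ± 0.08, which were -0.095, -0.15 and 0.039 without mock 6. ATP5G1, an older symbol that the annotation still used on 2 probe sets, had a fold of -0.11 ± 0.11 (-0.015 without mock 6), and its identity beside ATP5MC1 is uncertain. Near-identical copies may share signal. ATP5IF1, which blocks ATP hydrolysis when the gradient fails, had signals of 9.87, 10.26 and 10.56 on BV arrays and 9.50, 10.48 and 11.37 on mock arrays, and a fold of -0.22 ± 0.17, which was -0.096 without mock 6. Its extremes of both ends were mock arrays, 4 the lowest and 6 the highest.

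The 10 assembly factor genes had a median fold of 0.066, with 6 higher and 4 lower; without mock 6 it was -0.00047, with 5 higher and 5 lower. NDUFAF7, a methyltransferase needed to build complex I, had the highest fold of all members. Its log2 signals were 6.94, 7.61, 6.92, 7.33, 7.23 and 7.40 on BV arrays 1 to 6 and 7.09, 7.07, 6.75, 6.81, 6.57 and 6.40 on mock arrays 1 to 6. BV was higher in 5 of 6 pairs and the ranges overlapped. The fold was 0.46 ± 0.18 (adjusted p = 0.564), with 0.20, 0.34 and 0.83 in the 3 animals. Of its 3 probe sets, only this one was above the filter on dim signals.

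By role, the 16 core genes had a median fold of 0.0050 (9 higher, 7 lower) and the 41 accessory genes one of -0.095 (8 higher, 33 lower). The difference between the roles was not tested. Without mock 6 the medians were 0.028 and -0.037, with 13 accessory genes higher and 28 lower.

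Without animal 3 the medians of complexes II to V were 0.067, 0.026, -0.030 and 0.00025.

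Medians in the 6 pairs varied more than the pooled value. The member median was -0.17, 0.11, -0.13, 0.24, -0.083 and -0.39 in pairs 1 to 6. All 3 pairs of piece 1 were below 0, while those of piece 2 lay on both sides. In pair 6 the complexes parted: complex I was at -0.57, complex IV at -0.50 and complex V at -0.35, whereas complex II was at 0.084 and complex III at 0.33. In pair 4 all 5 complexes were above 0, between 0.15 and 0.30. The median of all genes stayed between -0.027 and 0.029 in every pair.

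**Figure D2:**
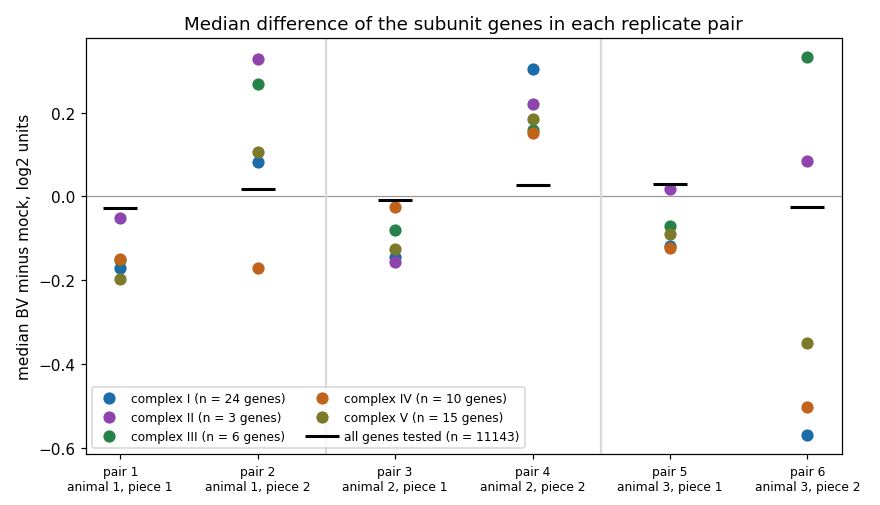
Median BV minus mock on the log2 scale (vertical axis) in each replicate pair, given with its animal and piece; coloured points are the subunit genes of complexes I to V and black bars all genes tested. Pair 6 shows the widest spread between complexes, from -0.57 (complex I) to 0.33 (complex III), while the black bars stay near 0.

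Mock arrays 4 and 6 held many of the extremes. Mock 6 had the highest value of the 12 arrays for 33 of 68 member genes (48.5%), compared with 20.6% of all genes, and the lowest for 12 (17.6%), compared with 20.7%. Of the 18 accessory genes of complex I, 14 were highest on mock 6. Of the 6 core genes of complexes II and III, 4 had their lowest value there: SDHA, SDHC, UQCRC1 and UQCRC2. Mock 4 had the lowest value for 22 member genes (32.4%), compared with 8.84% of all genes, 7 of them accessory genes of complex I. The part of RNA integrity in the pattern on mock 6 was not tested. Mock 4 had an actin ratio of 1.4.

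**Figure D3:**
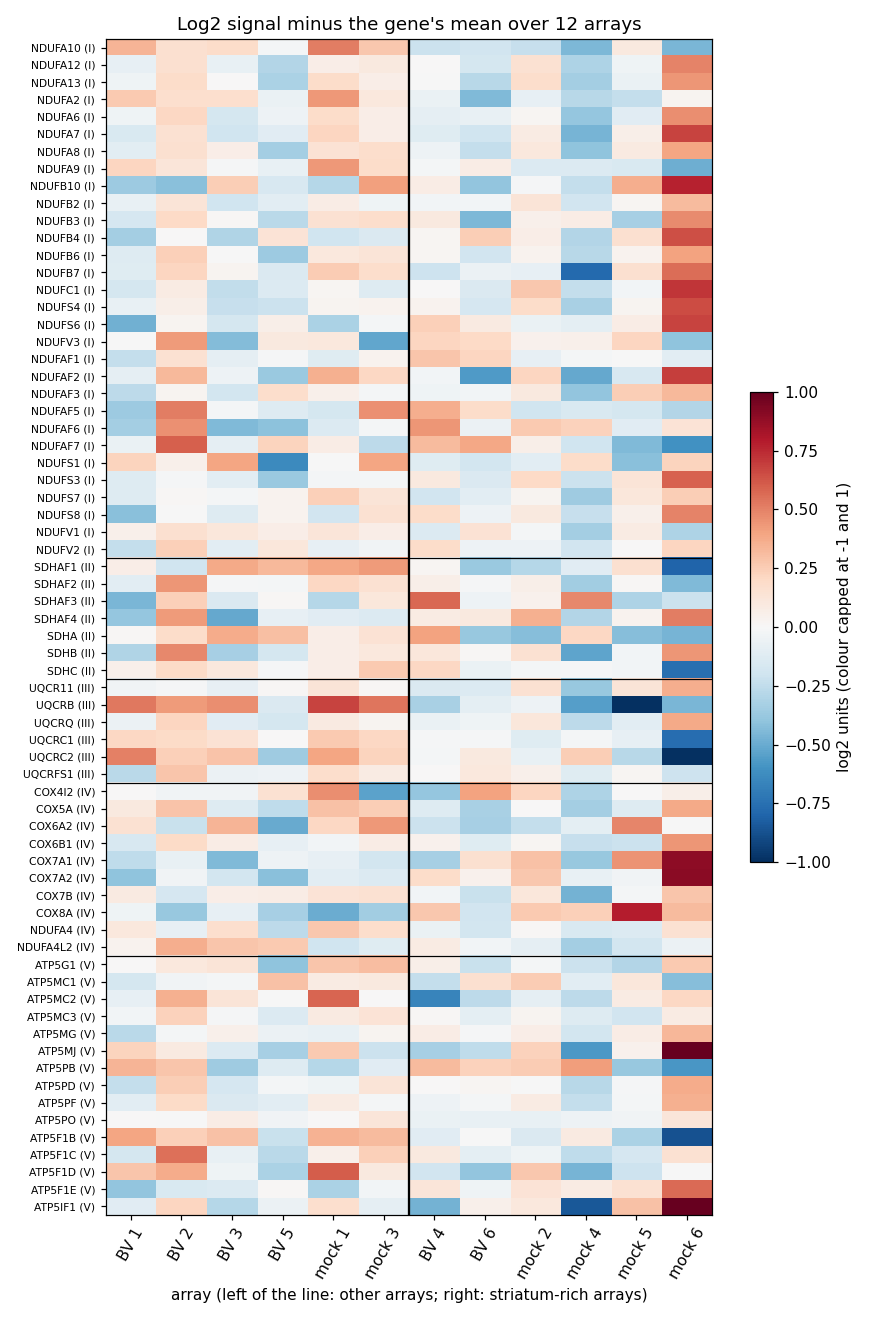
Log2 signal of each of the 68 genes minus that gene's mean over the 12 arrays (colour, capped at 1 log2 unit either way), genes in rows by complex and role, arrays in columns with the 6 other arrays left and the 6 striatum-rich arrays right of the line. The column of mock 6 is red for most complex I genes and blue for UQCRC1, UQCRC2 and ATP5F1B, and the column of mock 4 is blue for many genes.

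The members were next compared between the 6 striatum-rich arrays and the 6 others. This split was made from striatal markers of the same arrays and is no group of the study, so the values are a description with no test. The member genes hardly differed as a set: the median difference was -0.026 (striatum-rich minus other, log2 scale) beside -0.0058 for all genes, with 30 higher and 38 lower. Differences above 0.25 were found in 8 genes (11.8%, all genes 21.96%) and below -0.25 in 11 (16.2%, all genes 22.4%). These shares, too, were not set against those of genes of like signal. Without mock 6 the median was -0.092, with 20 higher and 48 lower. Pan-neuronal markers moved with this split: the mean of 6 was 9.85 to 10.7 on striatum-rich arrays and 10.5 to 11.6 on the others, and the part of neuron content in the differences below was not tested.

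UQCRB, an accessory subunit of complex III close to the ubiquinone site, had the lowest difference. It was at 9.53, 9.76, 9.80, 9.30, 8.84 and 9.40 on BV 4 and 6 and mock 2, 4, 5 and 6, and at 10.38, 10.28, 10.32, 9.71, 10.53 and 10.39 on BV 1, 2, 3 and 5 and mock 1 and 3. The ranges overlapped only through BV 5, which at 9.71 lay below BV 6 and mock 2. The difference was -0.83, and -0.82 without mock 6. Its other 3 probe sets differed in the same direction, by -1.04, -0.40 and -0.60. The BV minus mock folds of these 4 probe sets had mixed signs, from -0.13 to 0.28, and with the striatal marker mean as a covariate the 0.28 became 0.15.

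Core subunits were mostly lower on striatum-rich arrays, 11 of the 16 genes, while 5 were higher. NDUFS3 (0.22) and NDUFS8 (0.19) of complex I were among those 5. Of the 14 measured genes of the catalytic panel, in which UQCRC1 and UQCRC2 were also counted, 10 were lower, with a median of -0.12. Without mock 6, 12 were lower, with a median of -0.15. ATP5F1B had a lowest, median and highest signal of 10.74, 11.48 and 11.70 on striatum-rich arrays and of 11.39, 11.92 and 12.01 on the others, a difference of -0.46 (-0.33 without mock 6). UQCRC2 differed by -0.43 (-0.22 without mock 6). UQCRC1 was at 10.32, 11.03 and 11.07 against 11.08, 11.28 and 11.34, a difference of -0.34 (-0.22 without mock 6). This brightest probe set was the only one among members with all striatum-rich arrays below all others (1.3% of all probe sets), by a narrow margin. The other probe sets of UQCRC1 differed by -0.46 and 0.40, so the array gives no single direction for this gene. SDHA differed by -0.36 (-0.30 without mock 6). NDUFA10, an accessory subunit of complex I, was at 9.75, 9.99 and 10.30 against 10.18, 10.43 and 10.72, a difference of -0.48. SDHAF1, which helps to insert iron-sulphur clusters into SDHB, differed by -0.46 (-0.35 without mock 6).

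The 3 highest differences were all in complex IV. COX8A was at 8.86, 9.32 and 9.84 on striatum-rich arrays and at 8.55, 8.71 and 9.0 on the others, a difference of 0.56 (0.55 without mock 6). Only BV 6 among the striatum-rich arrays lay within the range of the others. COX7A2 was at 9.94, 10.13 and 10.92 against 9.60, 9.86 and 9.98, a difference of 0.43 (0.29 without mock 6). COX7A1 differed by 0.36 (0.22 without mock 6). The second probe set of COX7A2 again went the other way, by -0.10. The second probe set of ATP5F1E, the small epsilon subunit of complex V, was the only member probe set with all striatum-rich arrays above all others (2.49% of all), at 6.04 to 7.78 against 5.14 to 6.0, a difference of 1.26. Its brightest probe set differed by 0.34. ATP5F1E was named after its values were seen.

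**Figure D4:**
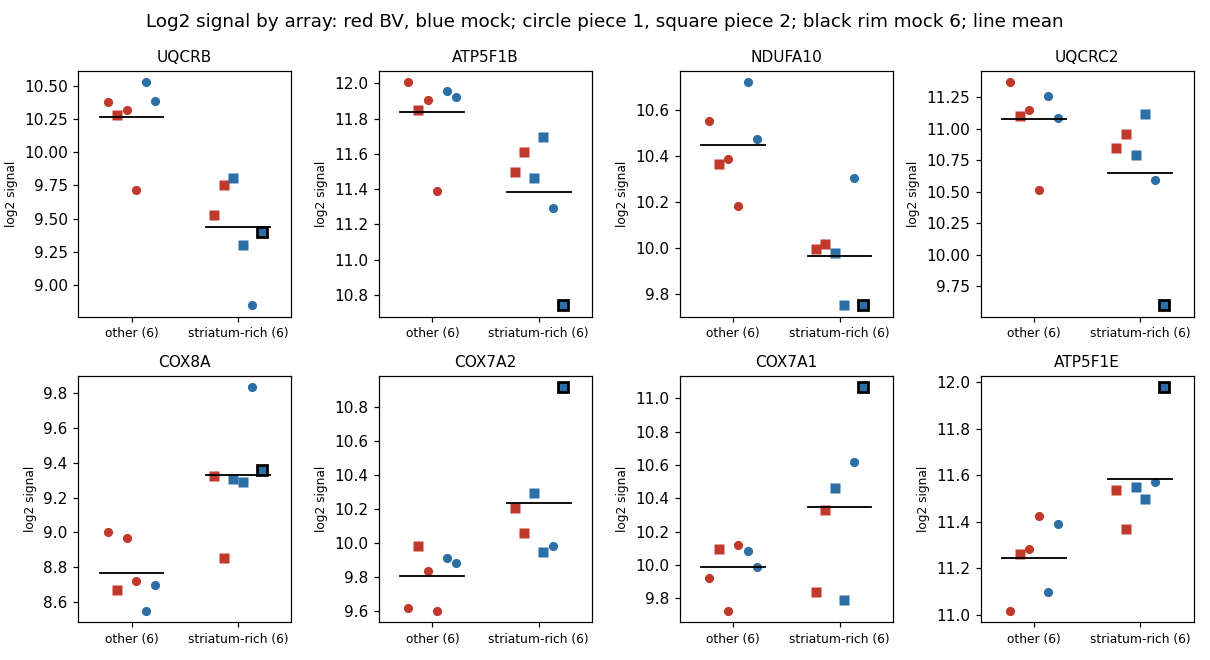
Log2 signal (vertical axes, a scale of its own per gene) on the 6 other and the 6 striatum-rich arrays for 8 genes, each by its brightest probe set; red is BV, blue mock, circles piece 1, squares piece 2, a black rim mock 6, and lines the means. The upper row is lower on striatum-rich arrays, most clearly UQCRB (difference -0.83); the lower row is higher, most clearly COX8A (0.56).

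Tissue content and piece number largely coincide, as 5 of the 6 striatum-rich arrays are piece 2. Treatment and animal were uneven over the split too. Most striatum-rich arrays are mock arrays, and most of the others are BV arrays. Animal 3 gave most of its arrays to the striatum-rich side and animal 1 to the other. The mean of the interferon response list differed by -0.65 between the sides. Tissue, piece, treatment and animal thus cannot be told apart in these differences. Within piece 2, where BV 2 is the only other array, the member median difference was -0.16, with 16 genes higher and 52 lower. Within piece 1, where mock 5 is the only striatum-rich array, it was 0.0032, with 34 higher and 34 lower. With 1 array on one side, these values have no error.

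Piece 2 was compared with piece 1 over the mean of both hemispheres of each animal. The test called 0 members (0% of all probe sets), and 12 member probe sets had an unadjusted p under 0.05, against 18.6% of all. The member median was 0.043, with 39 genes higher and 29 lower. Among the named genes, NDUFA10 differed by -0.46 ± 0.13 (adjusted p = 0.194), SDHAF1 by -0.58 ± 0.17, COX7A2 by 0.43 ± 0.16 and ATP5F1B by -0.27 ± 0.11. A fit on the 12 single arrays with the hemisphere as a block called 3 members (5.23% of all): SDHAF1 (adjusted p = 0.0450), the second probe set of NDUFV2 (-0.57, adjusted p = 0.0427) and the second of ATP5F1E (1.02, adjusted p = 0.0306). Without animal 3, 19 of 106 members were called (29.7% of all probe sets), and without pair 6, 19 of 107 (29.6% of all). In these settings members were called at a lower share than all probe sets. With no normalization 82 of 107 members were called (62.8% of all), and with quantile normalization within each piece number 92 of 107 (67% of all). There members were called at a higher share than all probe sets, and both settings keep the deposited difference in level between the pieces. Piece position and overall deposited level cannot be told apart in these differences.

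The BV minus mock difference was also compared between pieces. The interaction called 0 members (0% of all), and 4 member probe sets had an unadjusted p under 0.05, against 1.61% of all. They belonged to NDUFA2, NDUFAF5, SDHAF2 and COX7A2, with interaction terms of 1.28, 0.77, 0.57 and -0.86 (piece 2 minus piece 1), and were named after their values were seen. For NDUFA2 and COX7A2 these were dimmer probe sets than the one that stands for the gene elsewhere. The test was weak: on data simulated alike, with the limits given above, it recovered 3% of interactions of 1 log2 unit and 43% of those of 2.

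Several probe sets were tested for 29 member genes. Their BV minus mock folds had different signs for 13 genes and the same sign for 16, and the striatum-rich differences had different signs for 15. COX5A, an accessory subunit of complex IV, had 3 probe sets with folds from -0.15 to 0.33. NDUFA2 had striatum-rich differences from -0.36 to 0.87. All 5 probe sets of NDUFA6 had folds below 0, from -0.37 to -0.040. A sign for one of these genes thus holds for a probe set rather than for the gene, and the probe sets were designed for the rhesus macaque.

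Other genes of energy metabolism were taken from lists. Of the TCA cycle, which supplies NADH and succinate, 13 of 20 listed genes were measured, 0 passed, and the median fold was 0.14 with 8 higher and 5 lower. SUCLA2, a succinyl-CoA ligase subunit, had a fold of 0.43 ± 0.17 (adjusted p = 0.564), with 0.73, 0.063 and 0.51 in the 3 animals. CS, citrate synthase, had a fold of -0.082 ± 0.17 and a striatum-rich difference of -0.74. Of 23 electron carriers, ubiquinone synthesis genes and carriers of the inner and outer membrane, 12 were measured, 0 passed and the median fold was 0.0027. CYC1, the cytochrome c1 of complex III, had a fold of 0.083 ± 0.09 and a striatum-rich difference of -0.25.

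Of 45 further assembly and biogenesis genes, 30 were measured, 0 passed, and the median fold was -0.015 with 15 higher and 15 lower. Of 17 glycolysis genes, 13 were measured and 0 passed, with 10 higher, 3 lower and a median fold of 0.12. HK2, a hexokinase isoform, had the highest of these folds, 0.69 ± 0.30 (adjusted p = 0.566), carried mostly by animal 3, with 0.16, 0.30 and 1.62 in the 3 animals. ALDOA, aldolase, had a fold of 0.24 ± 0.10, with 0.27, 0.037 and 0.40 in the 3 animals. Striatum-rich differences had medians of -0.25 for the TCA cycle, -0.22 for the carriers, -0.094 for assembly and biogenesis and -0.19 for glycolysis, each further below 0 than the -0.026 of the respiratory chain members, and the differences between the lists were not tested.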

How the data were processed

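The deposited values were linear probe set intensities of 12 arrays, a column for each array; GCOS 1.4.0.036 is listed in the submitters' processing notes, and the summary algorithm and the scaling were not given in the sources used here. Per the labels' protocols, 5 µg of RNA was labelled. Arrays were quantile normalized and taken as log2(intensity + 3.49), where the pseudocount is the 10th percentile of deposited intensities and makes folds of dim probe sets too small. Of 52766 probe sets other than 99 controls, 31660 entered the tests because their mean log2 reached the 40th percentile (4.95). Symbols came from the platform annotation of the array: 24969 probe sets had 1 symbol, 361 several and 27535 none; 5 probe sets with several symbols that begin like members were left out. Of the 68 member symbols 67 were found in a RefSeq table of Macaca fascicularis genes (assembly T2T-MFA8v1.1).

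The pieces of a hemisphere were averaged and fitted in limma 3.58.1 (R 4.3.3) with animal as a block, eBayes with a trend, 2 residual degrees of freedom and two-sided tests. The block was used because every animal received virus and mock; deviations of both hemispheres correlated at 0.622, 0.156 and 0.361 in animals 1 to 3. The fits were tested on simulated data of 31660 probe sets with 200 changed, and made 4 false calls among 31460 unchanged ones in the BV comparison. The simulated data lacked differences between animals and between hemispheres, so this count is not that of this design. The number of arrays limits the precision. Named genes were the 3 highest and lowest folds, the 3 highest and lowest striatum-rich differences, the 2 brightest subunits of each complex, a catalytic and an isoform panel, any member called, and any member with probe sets of opposite sign of which one passed. Others are said to be chosen after their values were seen. Members and lists were chosen with earlier results of these data known. Alternatives covered scaling, pseudocount, filter, trend, blocks, each piece alone, a striatal covariate and left-out arrays or animals; leaving out pair 6 was added after mock 6 was seen to stand apart.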

Additional observations from a re-analysis of the deposited data

Results flagged for a closer look

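In 76 groups of 6 arrays (37 named genes and the mean of all member genes, each on BV and on mock arrays), 4 had an array far from the other 5, beside 5% of groups that chance gives. NDUFS7 on mock 4 was at 10.42, the lowest mock array, with the next at 10.80. SDHC on mock 6 was at 9.96, with the next mock array at 10.69. UQCRC1 on mock 6 was at 10.32, with the next at 10.96. UQCRQ on BV 2 was at 11.84, the highest BV array, with the next at 11.58.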

How the results depend on the processing

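No member probe set was called for BV versus mock under any of 31 settings, and the median fold of member genes ranged from -0.15 to 0.019. The main fit has the animal as a block. A replicate block of the 6 numbered pairs on the 12 arrays and a fit of unpaired hemispheres also called 0 members. Over all probe sets the calls were 9 with the animal block, 55 with the replicate block and 4 unpaired. The median of -0.081 was the same in each, as balanced groups give the same folds. Of 1145 alternative folds of named genes, 91 moved by more than the spread between replicates. Counts for piece 2 versus piece 1 depended on the scaling: 82 members were called with no normalization (62.8% of all probe sets) and 92 with quantile normalization within each piece number (67% of all), where the median differences were -0.73 and -0.74 and both settings keep the deposited difference in overall level between the pieces. The hemisphere block called 3 members (5.23% of all probe sets), and leaving out animal 3 or pair 6 called 19 each (29.7% and 29.6% of all); the cause was not tested. The striatum-rich difference had medians of -0.55 with no normalization and -0.57 with quantile normalization within each piece number.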
